A study of Mus musculus with 5 samples.

Results

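Gata1, Gata2, Zfpm1, Tal1, Lmo2, Gfi1b and Klf1, the GATA factors of blood cells and the proteins that work with them in the erythroid and megakaryocytic lineages, were followed through single-cell transcriptomes of mouse bone marrow. The 7 genes were chosen by name and are 7 of the 15287 genes in the table. All 7 were detected, with 179 (Zfpm1) to 8985 (Lmo2) UMIs over 12893 cells. A UMI is a molecular tag, so that the values count captured transcripts and not PCR copies.

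All cells came from the bone marrow of untreated mice, 20 weeks old, of the strain Fgd5CreERT2/+Rosa26Tomato/+. In this strain a cassette of ZsGreen and CreERT2 sits in the Fgd5 gene, so that green cells are those in which the Fgd5 locus is active. The Tomato allele in Rosa26 is read only after Cre has acted. All sorts took lineage-negative, kit-positive cells with the CD45.2 form of CD45, and the comparison sort (Lin-kit+) carried the same alleles as the ZsGreen-positive sorts. The 3 libraries of the Lin-kit+ sort, here a, b and c, held 1339, 4095 and 6147 cells. The library of ZsGreen-positive cells (Fgd5+) held 793 cells. The library of ZsGreen-positive cells that were also Sca1+CD150+CD48- (HSC-Fgd5+) held 519 cells. Depth ran from 2166655 to 36080242 UMIs per library and from 3721 to 6567 median UMIs per cell.

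The assignment of libraries to sorts rests on these cell numbers, because the table names a library only by a barcode suffix, and the title and source labels of the ZsGreen-positive pair disagree on which of them had the HSC gate. The number of mice was not given in the sources used here, so p-values measure the spread between libraries, which may be technical. The ZsGreen-positive libraries had different gates and were tested as a single group. Each gate had a single library, so the spread within that group includes the gate. Between libraries, 62 cell barcodes were shared, by 125 cells. Scrublet called 154 cells (1.19%) doublets, and they were kept.

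GATA1 and GATA2 are zinc finger proteins that bind the same short DNA sequence. GATA2 acts in stem cells, early progenitors and mast cells, GATA1 in erythroid cells, megakaryocytes, basophils, mast cells and eosinophils, and as erythroid cells mature GATA1 takes the place of GATA2 at shared sites, the GATA switch. Zfpm1 encodes FOG1, a cofactor that binds GATA1 directly, while TAL1, a basic helix-loop-helix protein, and the bridging protein LMO2 form a complex with GATA factors, E proteins and LDB1. GFI1B is a repressor that recruits the demethylase LSD1, and KLF1 activates globin and other red cell genes through CACCC sequences.

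In the GENCODE M21 annotation (GRCm38) the members lie at chrX:7959260-7978071 (Gata1, minus strand), chr6:88193891-88207032 (Gata2), chr8:122282141-122337251 (Zfpm1), chr4:115056426-115071755 (Tal1), chr2:103957986-103981878 (Lmo2), chr2:28609450-28621982 (Gfi1b, minus strand) and chr8:84901928-84905291 (Klf1). Promoter windows of RefSeq (GRCm38.p6, 300 bases) were matched by symbol for 6 of the 7. The 250 bases before the RefSeq start are shown for Gata1, Gfi1b and Klf1, of whose Lin-kit+ UMIs erythroid-like cells held the largest shares below, and, for contrast, for Tal1 (the upstream of its windows) and Gata2. For Klf1 only the first 196 are shown, since GENCODE places the rest in an exon. The stretch shown for Gata1 lies within the span that GENCODE gives the gene and overlaps no exon of it. The sequences read 5′ to 3′ on the strand of the gene. Capitals mark GATA on either strand, so TATC is the same motif read from the other strand.
Gata1, chrX:7967911-7968160, minus strand: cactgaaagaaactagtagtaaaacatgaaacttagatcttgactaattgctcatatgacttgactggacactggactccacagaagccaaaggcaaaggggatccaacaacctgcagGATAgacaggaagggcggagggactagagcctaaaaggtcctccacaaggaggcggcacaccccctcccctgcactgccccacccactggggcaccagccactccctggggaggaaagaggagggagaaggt
Gfi1b, chr2:28621983-28622232, minus strand: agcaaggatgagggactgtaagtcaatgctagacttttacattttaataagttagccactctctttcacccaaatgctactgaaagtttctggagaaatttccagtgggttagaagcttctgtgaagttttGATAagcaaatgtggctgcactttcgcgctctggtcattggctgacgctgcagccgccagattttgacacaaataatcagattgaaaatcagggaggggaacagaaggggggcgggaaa
Klf1, chr8:84901732-84901927, plus strand: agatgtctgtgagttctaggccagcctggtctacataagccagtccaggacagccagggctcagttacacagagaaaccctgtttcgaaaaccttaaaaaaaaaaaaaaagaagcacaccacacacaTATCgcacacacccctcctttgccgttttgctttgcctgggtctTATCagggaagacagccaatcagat
Tal1, chr4:115056176-115056425, plus strand: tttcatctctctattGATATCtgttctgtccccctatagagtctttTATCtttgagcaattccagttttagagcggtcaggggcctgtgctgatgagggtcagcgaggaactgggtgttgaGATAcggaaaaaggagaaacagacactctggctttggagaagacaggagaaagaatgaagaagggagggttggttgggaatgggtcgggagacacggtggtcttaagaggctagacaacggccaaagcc
Gata2, chr6:88193641-88193890, plus strand: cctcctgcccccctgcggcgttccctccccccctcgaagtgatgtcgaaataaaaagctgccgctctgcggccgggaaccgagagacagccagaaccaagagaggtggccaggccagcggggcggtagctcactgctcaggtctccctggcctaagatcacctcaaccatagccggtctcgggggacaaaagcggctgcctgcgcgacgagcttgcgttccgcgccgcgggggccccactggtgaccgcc

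The Gata1 and Gfi1b windows held 1 GATA match each, the Klf1 window held 2 and the upstream Tal1 window held 4, of which 2 overlap. No GATA match was present in either Gata2 window, in the second Tal1 window or in the Zfpm1 window. The motif is short, and 57.9% of 32851 promoter windows of the same length held it. The longer GATAA, present in the Gfi1b, Klf1 and upstream Tal1 windows, was in 25.4% of all windows. CACCC, on either strand, was in 57.5% of all windows, and the Gata1, Klf1 and Zfpm1 windows held 2, 2 and 3 matches. The Gfi1b, upstream Tal1 and second Gata2 windows held 1 each, and the first Gata2 and second Tal1 windows held none. These matches describe the letters in the windows and are no measure of binding.

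In whole libraries, 5 of the 7 genes were higher in the ZsGreen-positive sorts and Gata1 and Klf1 were lower. Lmo2 was 9.34-fold, Gata2 4.22-fold, Tal1 4.16-fold and Gfi1b 2.53-fold higher, while Klf1 was 10.8-fold and Gata1 3.58-fold lower. All 7 passed the test (edgeR on counts summed per library, adjusted p below 0.05), in a comparison in which 63.1% of all 11991 genes tested passed, 32.7% higher and 30.4% lower. A share that high means that the count of members called is no result about the members. In sums over a library, fewer cells of a type and less RNA per cell cannot be told apart, and erythroid-like cells, defined below, were 4.08% to 4.82% of the Lin-kit+ libraries against 0 and 1 cell in the ZsGreen-positive libraries.

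**Figure D1:**
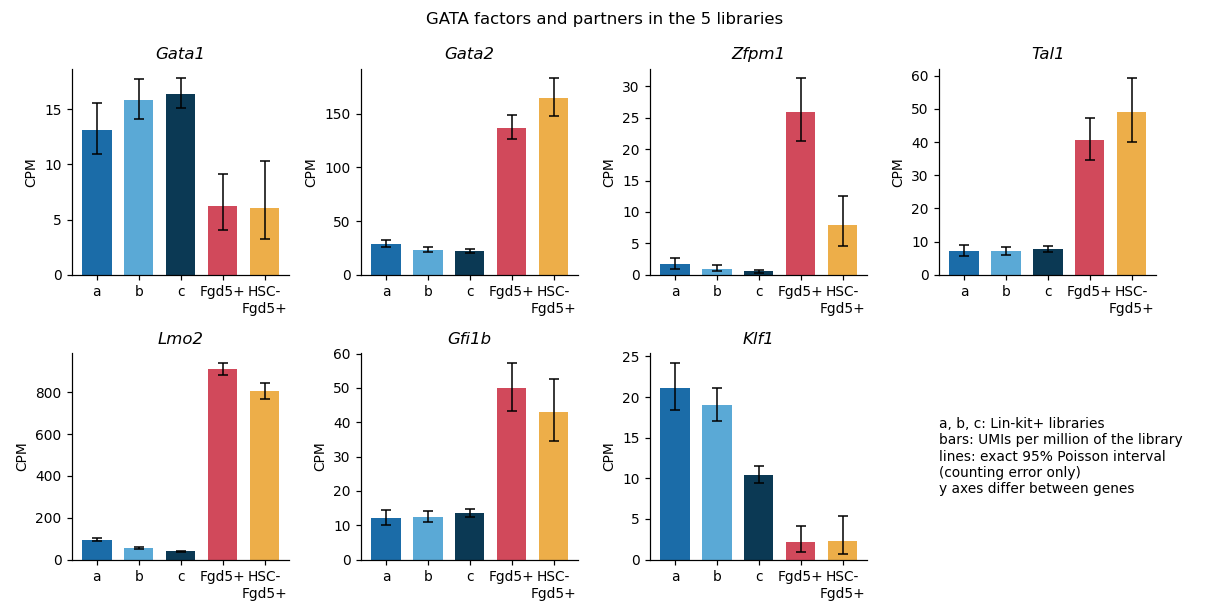
Level of each gene in the 5 libraries, as CPM, the UMIs of the gene scaled to the library total (y axes differ between genes), with exact 95% Poisson intervals as error bars. Bars a, b and c are the Lin-kit+ libraries. Gata1 and Klf1 stand lower, and the other 5 genes higher, in both ZsGreen-positive libraries than in any Lin-kit+ library. In this comparison 63.1% of all 11991 genes tested passed.

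Gata1 reached 13.1, 15.8 and 16.4 CPM (UMIs of the gene scaled to the library total) in Lin-kit+ a, b and c, against 6.24 CPM in Fgd5+ and 6 CPM in HSC-Fgd5+. Gata2 ran the other way, at 28.6, 23.4 and 22.0 CPM in Lin-kit+ and 137 and 164.8 CPM in Fgd5+ and HSC-Fgd5+. The groups did not overlap for either gene, in a comparison in which 63.1% of all genes tested passed. The share of all genes without overlap is not given here, so the lack of overlap is no result about the members. The difference on the log2 scale was -1.84 ± 0.19 (SE) for Gata1 (edgeR adjusted p = 1.49e-04) and 2.08 ± 0.14 for Gata2 (edgeR adjusted p = 2.05e-05).

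For the GATA partners, Tal1 was at 7.20, 7.12 and 7.65 CPM in Lin-kit+ and at 40.5 and 48.9 CPM in the ZsGreen-positive libraries (log2 difference 2.06 ± 0.12, edgeR adjusted p = 1.48e-05). Lmo2 was at 96.1, 54.7 and 40.8 CPM against 908.5 and 804.9 CPM (log2 difference 3.22 ± 0.33, edgeR adjusted p = 1.53e-04). Every ZsGreen-positive value lay above every Lin-kit+ value for both, where 32.7% of all genes tested were called higher. Zfpm1 was the sparsest, at 1.70, 0.963 and 0.527 CPM against 25.9 and 7.85 CPM, a log2 difference of 3.82 ± 0.58 (edgeR adjusted p = 0.00103) that rested on 54 UMIs in Lin-kit+ and 125 in the ZsGreen-positive libraries. Without Fgd5+ the Zfpm1 difference was 2.55 (edgeR adjusted p = 0.0341).

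The repressor Gfi1b was at 12.2, 12.4 and 13.5 CPM in Lin-kit+ and at 49.9 and 42.9 CPM in the ZsGreen-positive libraries (log2 difference 1.34 ± 0.12, edgeR adjusted p = 8.04e-05). Klf1 was at 21.1, 19.0 and 10.4 CPM against 2.16 and 2.31 CPM (log2 difference -3.43 ± 0.51, edgeR adjusted p = 9.11e-04), the latter from 9 and 5 UMIs. With library totals in place of TMM scaling the median over all genes moved from 0.07 to 0.60 on the log2 scale and the share of calls that were higher from 51.8% to 76.8%. Under that scaling all 7 kept their direction and passed, with -1.31 for Gata1 and 1.88 for Gfi1b.

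Some members differed between the libraries of the Lin-kit+ sort, or between the ZsGreen-positive libraries, which differ in their gate. Lmo2 was 2.36-fold higher in Lin-kit+ a than in c (95% counting interval 2.17 to 2.56), and 2.17% of 9589 genes were that far apart. The order a, b, c held for Lmo2 in neutrophil-like cells too, at 50.5, 29.5 and 21.1 CPM. Klf1 was 2.02-fold higher in a than in c (1.70 to 2.40) and 1.82-fold higher in b than in c (1.57 to 2.11), with 3.58% and 1.34% of genes as far apart. Between the ZsGreen-positive libraries, Zfpm1 was 3.30-fold higher in Fgd5+ than in HSC-Fgd5+ (1.97 to 5.88), a distance reached by 0.464% of 6245 genes. These are single libraries, and the intervals cover counting error only.

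To place the genes in cell types, each cell was assigned to the list, of 9 lists of 10 markers, with the most markers detected, if these were at least 3 and at least 2 more than in any other list. No member is a marker. This gave 523 erythroid-like, 77 megakaryocyte-like, 449 basophil/mast-like and 1327 stem-like cells, 3564 neutrophil-like and 2854 monocyte-like cells, and left 3992 cells (31.0%) unclassed. In erythroid-like cells Car1 reached 4305 CPM, in megakaryocyte-like cells Pf4 reached 9780 CPM, and in basophil/mast-like cells Fcer1a reached 1831 CPM, the values that chose them. Cells just inside and just outside the cut numbered 184 and 96 for erythroid-like, 41 and 47 for megakaryocyte-like, 87 and 48 for basophil/mast-like and 344 and 252 for stem-like cells.

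In Lin-kit+ a, b and c, 59, 167 and 296 cells were erythroid-like, 10, 24 and 42 megakaryocyte-like, 56, 141 and 252 basophil/mast-like, and 30, 88 and 121 stem-like. Most ZsGreen-positive cells were stem-like, 679 in Fgd5+ and 409 in HSC-Fgd5+. Below, a level is CPM of the UMIs summed over a class in one library, and a log2 difference comes from edgeR on those sums with the library as a block, over 4687 genes tested. Zfpm1 had too few UMIs in these classes to be tested there.

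Erythroid-like cells were 4.51% of Lin-kit+ cells with 5.03% of the UMIs, but held 67.3% of the Lin-kit+ Klf1 UMIs, 50.3% of Gfi1b, 45.4% of Gata1 and 44.4% of Zfpm1. The share was 27.7% for Tal1, 13.8% for Gata2 and 10.1% for Lmo2. Basophil/mast-like cells (3.88% of cells) held 35.5% of the Gata2 UMIs. Unclassed cells held between 24.8% (Klf1) and 42.3% (Lmo2) of the UMIs of each gene, so a sizable part of every member's transcripts lay outside the classes.

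**Figure D2:**
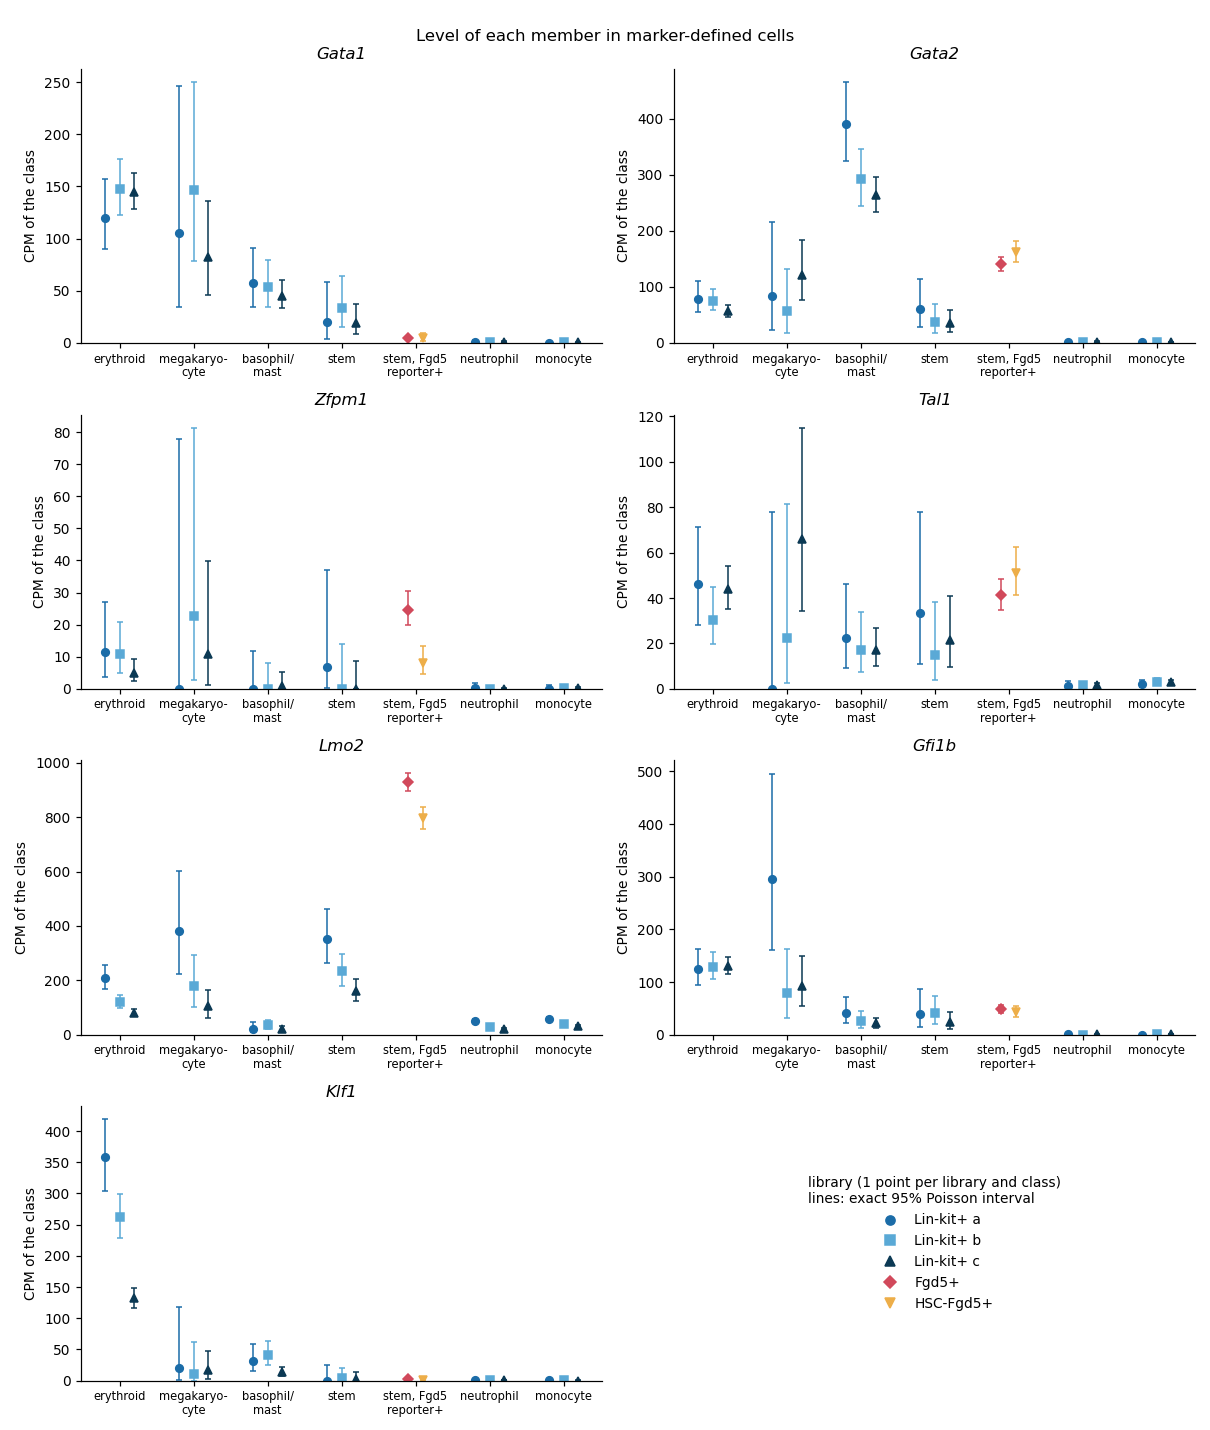
CPM of each gene in marker-defined cells, 1 point per library and class, with exact 95% Poisson intervals (y axes differ between genes). Klf1 stands highest in erythroid-like cells, Gata2 in basophil/mast-like cells and Lmo2 in stem-like cells of the ZsGreen-positive libraries, while neutrophil- and monocyte-like cells stay near 0 for all but Lmo2.

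Gata1 was highest on average in erythroid-like cells, at 120, 147.5 and 144.9 CPM in a, b and c (137 ± 15.2, mean ± SD, n = 3). Megakaryocyte-like cells had 105.5, 146.5 and 82.4 CPM, from 5, 13 and 15 UMIs. These ranges overlapped, and the difference between them did not pass (log2 0.53 ± 0.26, edgeR adjusted p = 0.146). Below them came basophil/mast-like cells at 57.6, 53.7 and 45.1 CPM and stem-like cells at 20.0, 33.8 and 19.1 CPM. Erythroid-like cells exceeded basophil/mast-like cells by 1.36 ± 0.17 (edgeR adjusted p = 1.42e-13), and basophil/mast-like exceeded stem-like cells by 1.23 ± 0.34 (edgeR adjusted p = 0.00208, but 0.0685 without library c). Megakaryocyte-like cells exceeded stem-like cells by 2.07 ± 0.41 (edgeR adjusted p = 2.92e-05), and erythroid-like cells did so 6.04-fold (edgeR adjusted p = 1.02e-18). The difference between megakaryocyte-like and basophil/mast-like cells was 0.84 ± 0.32 (edgeR adjusted p = 0.0454), and without library a, b or c it no longer passed (edgeR adjusted p = 0.0611, 0.352 and 0.135).

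A Gata1 UMI was found in 52.7% of erythroid-like, 34.2% of megakaryocyte-like, 17.4% of basophil/mast-like and 6.69% of stem-like cells of the Lin-kit+ libraries. In neutrophil-like cells, which should lack the gene, it was 0.337%, at a median depth of 5444 UMIs per cell against 5036 in erythroid-like, 4001 in megakaryocyte-like, 3647 in basophil/mast-like and 4120 in stem-like cells. After each cell was thinned to 2000 UMIs the shares became 25.2%, 18.1%, 7.97% and 3.92%, with 0.0572% in neutrophil-like cells. Pooled over libraries, all 4 classes stood above the neutrophil-like share at equal depth.

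Gata2 had another order. Basophil/mast-like cells stood highest, at 390.5, 292.2 and 264.1 CPM (316 ± 66.4, n = 3), above every value of every other class of the Lin-kit+ libraries. Megakaryocyte-like cells had 84.4, 56.3 and 120.8 CPM, erythroid-like cells 78.4, 75.6 and 57.0 CPM, and stem-like cells 60.0, 37.5 and 35.8 CPM. Megakaryocyte-like and erythroid-like cells did not differ beyond their spread (log2 -0.49 ± 0.30 in erythroid-like against megakaryocyte-like, edgeR adjusted p = 0.271), and without library c the sign turned (0.31). Basophil/mast-like cells exceeded megakaryocyte-like cells 3.50-fold (edgeR adjusted p = 3.58e-12), with a log2 difference of megakaryocyte-like from basophil/mast-like cells of -1.81, or -2.52 without c. They exceeded erythroid-like cells 4.90-fold (edgeR adjusted p = 1.59e-50) and stem-like cells 8.17-fold (edgeR adjusted p = 2.85e-37). The distance of erythroid-like from stem-like cells, 0.74 ± 0.26 (edgeR adjusted p = 0.0151), did not pass without b or c (edgeR adjusted p = 0.134 and 0.0735). That of megakaryocyte-like from stem-like cells, 1.22 ± 0.38 (edgeR adjusted p = 0.0155), did not pass without c, where it was 0.50 (edgeR adjusted p = 0.802).

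A Gata2 UMI was found in 65.5% of basophil/mast-like cells (44.9% thinned), 31.6% of megakaryocyte-like cells (16.7% thinned), 30.3% of erythroid-like cells (15.9% thinned) and 10.9% of stem-like cells (4.90% thinned) of the Lin-kit+ libraries. Neutrophil-like cells gave 0.870% (0.258% thinned). Stem-like cells of the ZsGreen-positive libraries gave 47.4% (24.7% thinned), between basophil/mast-like and megakaryocyte-like cells at equal depth.

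Gata1 against Gata2 within cells is a ratio of 2 genes measured in the same cells, and therefore does not depend on the scaling. It compares 3′ UMI counts, whose capture can differ between transcripts, so its value is read between classes only. Of all Gata1 plus Gata2 UMIs in erythroid-like cells, Gata1 made up 60.5%, 66.1% and 71.8% in libraries a, b and c (66.1% ± 5.66, n = 3). In megakaryocyte-like cells it made up 55.6%, 72.2% and 40.5% (56.1% ± 15.9), and in basophil/mast-like cells 12.9%, 15.5% and 14.6% (14.3% ± 1.36). Erythroid-like and basophil/mast-like values lay far apart in all 3 libraries, whereas the megakaryocyte-like values covered the erythroid-like range. The classes come from the same 3 libraries. Even an exact permutation test of 3 values against 3, which ignores this pairing, has a smallest p of 0.1, so no test was made.

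In stem-like cells the share was 25%, 47.4% and 34.8% in Lin-kit+ a, b and c, from 12, 19 and 23 UMIs of both genes together. In the ZsGreen-positive libraries it was 2.91% in Fgd5+ (exact 95% interval 1.64% to 4.76%) and 2.88% in HSC-Fgd5+ (1.33% to 5.41%). The 2 values differed by less than their intervals and lay below all 3 Lin-kit+ libraries. After thinning to 2000 UMIs the Lin-kit+ stem-like cells were left with 9 UMIs of both genes, too few for a share.

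Counted by cell, 197 of 522 erythroid-like Lin-kit+ cells had Gata1 UMIs only, 80 had Gata2 only and 78 (14.9%) had both. More Gata1 than Gata2 UMIs were found in 224 erythroid-like cells and the opposite in 90. In 449 basophil/mast-like cells 13 had Gata1 only, 229 Gata2 only and 65 (14.5%) both, and Gata2 prevailed in 264 cells against 19. In 76 megakaryocyte-like cells the numbers were 18, 16 and 8 (10.5%), and neither gene prevailed, with 19 cells against 17. Of the 1088 stem-like ZsGreen-positive cells, 504 had Gata2 only, 7 Gata1 only and 12 (1.10%) both.

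Among basophil/mast-like cells with a Gata1 UMI, 83.3% also had Gata2, against 61.7% of those without. In erythroid-like cells the shares were 28.4% and 32.4%. These shares are not corrected for depth and are given without a test, since cells of a library are not replicates. At 2000 UMIs per cell both genes were found in 15 of 369 erythroid-like and 18 of 389 basophil/mast-like cells, assigned again after thinning.

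**Figure D3:**
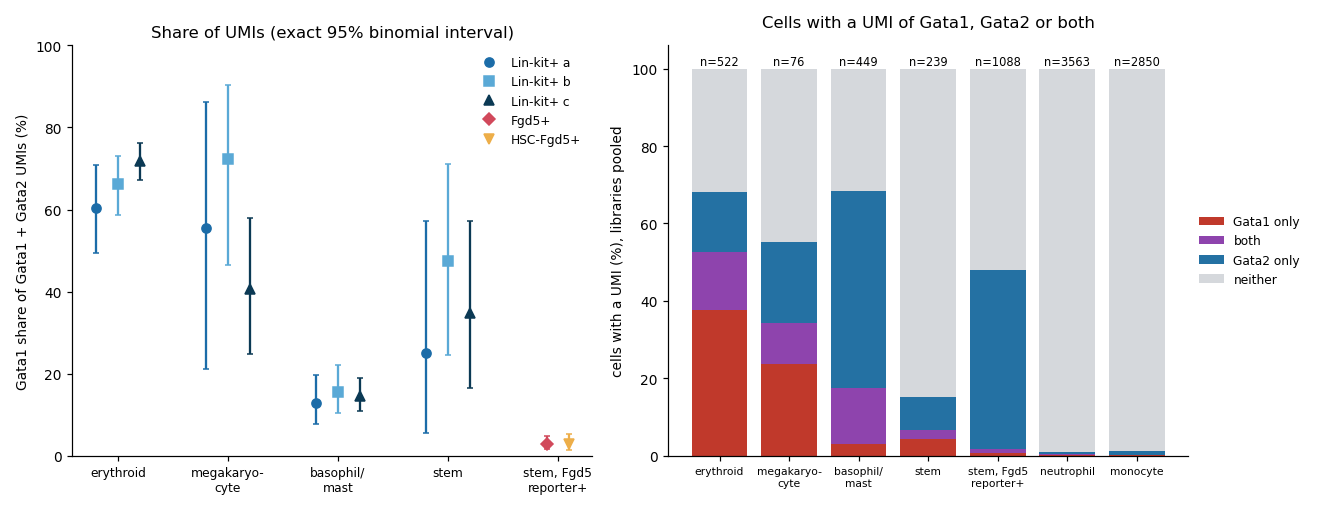
Left, the share of Gata1 in all Gata1 plus Gata2 UMIs (%) per library and class, with exact 95% binomial intervals. Right, the percentage of cells with UMIs of Gata1 only, both, Gata2 only or neither, libraries pooled, with the number of cells above each bar. Gata1 made up 60.5% to 71.8% in erythroid-like, 12.9% to 15.5% in basophil/mast-like and below 3% in ZsGreen-positive stem-like cells.

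Erythroid-like cells were then split by how many of the 10 erythroid markers had a UMI, a split that was chosen with the values known and is given without a test. Gata2 went from 132.6 CPM at 3 to 4 markers (253 cells) to 58.6 at 5 to 6 (138 cells) and 27.6 at 7 or more (131 cells). Gata1, likewise pooled over libraries, was at 139, 133 and 149 CPM. By library it was at 96.1, 128.8 and 132.9 CPM in a, 142.2, 110.3 and 181.8 in b and 151.9, 142.1 and 143.4 in c. The pooled Gata1 share of both genes was 51.2%, 69.4% and 84.4%. This share was higher in the last bin than in the first in all 3 libraries. The values were 35.9% and 83.3% in a, 54.4% and 88.3% in b and 54.1% and 83.2% in c. Library a had only 8 cells in the middle bin and 17 in the last.

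Cells with more markers were deeper, with medians of 3212, 6366 and 10700 UMIs. At 2000 UMIs per cell the share was 55.7% (exact 95% interval 46.1% to 64.9%) with 3 markers, 60.5% (44.4% to 75.0%) with 4 and 70.6% (52.5% to 84.9%) with 5 or more. These pooled values kept the order but their intervals overlapped. Library b showed no order, at 57.1%, 53.8% and 54.5%, and c was higher only in the last bin, at 61.0%, 59.3% and 77.3%. Library a went from 38.1% to 100% and 100%, where the upper bins held 3 and 1 UMIs of Gata1 and 0 of Gata2. Klf1 showed no such order, at 236.9, 152.2 and 195.8 CPM.

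**Figure D4:**
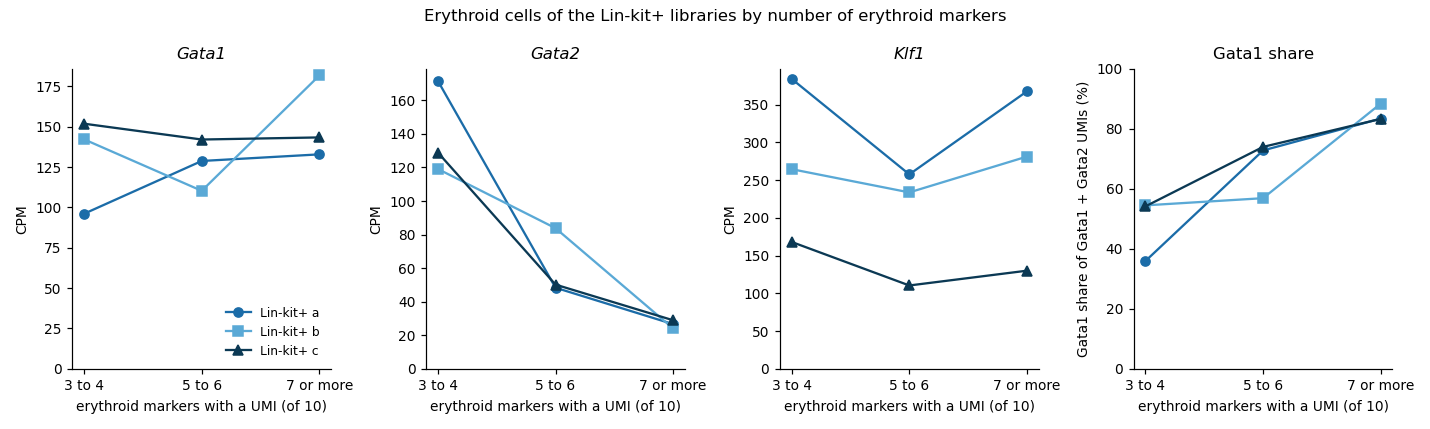
Gata1, Gata2 and Klf1 (CPM) and the Gata1 share of Gata1 plus Gata2 UMIs (%) in erythroid-like Lin-kit+ cells, by the number of the 10 erythroid markers with a UMI. Each line is a library. Gata2 is lower, and the Gata1 share higher, at 7 or more markers than at 3 to 4 in all 3 libraries.

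Zfpm1, the cofactor of GATA1, was found in few cells. In erythroid-like cells it was at 11.5, 10.97 and 4.996 CPM in a, b and c, from 5, 9 and 10 UMIs, and megakaryocyte-like cells held 0, 2 and 2 UMIs. Basophil/mast-like cells held 0, 0 and 1 UMI and Lin-kit+ stem-like cells 1, 0 and 0. In ZsGreen-positive stem-like cells 88 and 15 UMIs gave 24.7 and 8.06 CPM, and 12.2% and 3.67% of the cells had a UMI (3.79% and 1.22% thinned), against 0.0281% of neutrophil-like cells. Fitted without the filter on low counts, erythroid-like exceeded basophil/mast-like cells by 3.24 ± 0.99 on the log2 scale (edgeR adjusted p = 0.0057), a value that depends on a count of 1 UMI.

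Tal1 was at no more than 65.9 CPM in any class, and of the 4 classes only erythroid-like and basophil/mast-like cells did not overlap. Erythroid-like cells had 46.1, 30.5 and 44.0 CPM, stem-like cells 33.3, 15.01 and 21.5 CPM, and basophil/mast-like cells 22.4, 17.2 and 16.9 CPM. Megakaryocyte-like cells had 0, 22.5 and 65.9 CPM, from 0, 2 and 12 UMIs, so that library c alone held most of them. Erythroid-like exceeded basophil/mast-like cells by 1.04 ± 0.28 (edgeR adjusted p = 7.35e-04). The difference of 0.92 ± 0.35 from stem-like cells (edgeR adjusted p = 0.025) did not pass without library b (edgeR adjusted p = 0.0918). Nor did it pass with at least 4 markers or without the library block (edgeR adjusted p = 0.079 and 0.0768), or with DESeq2 (DESeq2 adjusted p = 0.133). A Tal1 UMI was found in 19.9% of erythroid-like cells (7.02% thinned), against 0.898% of neutrophil-like cells (0.258% thinned).

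Lmo2, which bridges TAL1 and the GATA factors, was the member found most widely. In a, b and c it stood at 380, 180.2 and 104.4 CPM in megakaryocyte-like cells, 353, 233 and 162 CPM in stem-like cells, and 209.9, 119.4 and 80.4 CPM in erythroid-like cells. Basophil/mast-like cells had 22.4, 34.4 and 20.7 CPM, near the 50.5, 29.5 and 21.1 CPM of neutrophil-like cells. Library a was the highest in the first 3 classes, and the ranges of these classes overlapped, but within each library erythroid-like cells were the lowest of the 3. With the library as a block, erythroid-like cells fell below stem-like cells (-0.88 ± 0.15, edgeR adjusted p = 1.35e-07), a call that was lost without the block (edgeR adjusted p = 0.0572). Basophil/mast-like cells were 7.61-fold below stem-like cells (edgeR adjusted p = 1.46e-30).

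A Lmo2 UMI was found in 44.8% of stem-like, 42.1% of megakaryocyte-like, 41.8% of erythroid-like and 8.91% of basophil/mast-like cells of the Lin-kit+ libraries. Neutrophil-like cells gave 13.2% and monocyte-like cells 20.5%. At 2000 UMIs per cell the stem-like, erythroid-like and neutrophil-like shares were 31.4%, 16.7% and 4.78%. The basophil/mast-like share, at 3.62% thinned, did not exceed the neutrophil-like share.

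Gfi1b, like Gata1, was high in erythroid-like and megakaryocyte-like cells. Erythroid-like cells had 124.6, 129.2 and 130.9 CPM (128 ± 3.28, n = 3), the smallest SD relative to the mean of the 7 genes in that class. Megakaryocyte-like cells had 295.5, 78.9 and 93.4 CPM, of which the first came from 14 UMIs in a class of 10 cells. Stem-like cells had 40.0, 41.3 and 23.9 CPM and basophil/mast-like cells 41.6, 25.8 and 21.6 CPM. Erythroid-like and megakaryocyte-like cells did not differ beyond their spread (0.18 ± 0.26, edgeR adjusted p = 0.688), nor did basophil/mast-like and stem-like cells (-0.12 ± 0.36, edgeR adjusted p = 0.856). Erythroid-like exceeded stem-like cells 4.09-fold (edgeR adjusted p = 3.35e-13) and basophil/mast-like cells 4.45-fold (edgeR adjusted p = 4.19e-21). A Gfi1b UMI was found in 45.21% of erythroid-like cells (19.6% thinned) against 0.225% of neutrophil-like cells.

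Klf1 was higher in erythroid-like cells than in every other class. It was at 357.6, 262 and 132.4 CPM in erythroid-like cells of a, b and c (251 ± 113, n = 3), and the lowest of these exceeded the highest value of any other class. Basophil/mast-like cells had 32.0, 40.8 and 13.2 CPM, megakaryocyte-like cells 21.1, 11.3 and 16.5 CPM from 1, 1 and 3 UMIs, and stem-like cells 0, 3.75 and 2.39 CPM from 0, 1 and 1 UMI. Erythroid-like exceeded megakaryocyte-like cells 13.6-fold (edgeR adjusted p = 7.55e-17), against 5 UMIs in the latter, and basophil/mast-like cells 7.87-fold (edgeR adjusted p = 6.52e-42). The first of these, 3.76 on the log2 scale, was 4.39 without c. Basophil/mast-like exceeded stem-like cells by 3.41 ± 0.70 on the log2 scale (edgeR adjusted p = 1.65e-05), with 43 UMIs against 2. A Klf1 UMI was found in 57.5% of erythroid-like cells (31.4% thinned) and 0.421% of neutrophil-like cells (0.114% thinned).

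Counted over the members, erythroid-like and basophil/mast-like cells differed in 6 of the 6 genes tested, where 56.0% of all 4687 genes passed, with 5 genes higher in erythroid-like cells and Gata2 lower. Erythroid-like against stem-like cells also gave 6 of 6 (41.0% of all genes), with 5 higher and Lmo2 lower. Without the library block 3 of these 6 passed. Only Klf1 passed between erythroid-like and megakaryocyte-like cells, 1 of 6 against 21.1% of all genes (11.3% higher, 9.77% lower), whereas 5 passed with Leiden clusters in place of marker counts. Megakaryocyte-like cells differed from basophil/mast-like cells in 4 of 6 (20.7% of all genes, 7.34% higher and 13.3% lower), Gata1, Lmo2 and Gfi1b higher and Gata2 lower, and from stem-like cells in 3 of 6 (10.7% of all genes, 4.25% higher and 6.44% lower), Gata1, Gata2 and Gfi1b higher. Basophil/mast-like against stem-like cells gave 4 of 6 (26.6% of all genes), Gata1, Gata2 and Klf1 higher and Lmo2 lower.

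Within the stem-like class, ZsGreen-positive cells carried more Lmo2 and Gata2 than Lin-kit+ cells. Tal1 was higher too, in a call that was lost under several settings, given below. All 10 stem markers, which chose the cells of this class, were also higher in ZsGreen-positive than in Lin-kit+ stem-like cells. Their sums were 2650 and 2818 CPM in Fgd5+ and HSC-Fgd5+ and 1253, 1689 and 1648 CPM in a, b and c. The part of the stem markers in the differences of the members was not tested. Of the members, 4 passed the filter on low counts and 3 of these were called, where 21.7% of all 5153 genes tested passed. Lmo2 was at 929 and 797 CPM in Fgd5+ and HSC-Fgd5+, above 353, 233 and 162 CPM in Lin-kit+ a, b and c (log2 difference 1.89 ± 0.19, edgeR adjusted p = 1.03e-05). Gata2 was at 140.1 and 162.7 CPM against 60.0, 37.5 and 35.8 CPM (1.85 ± 0.22, edgeR adjusted p = 6.14e-05). No value of one sort lay within the range of the other for these 2 genes. The share of all genes without overlap between the stem-like sums is not given here, so this lack of overlap is no result about the members.

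Tal1 was at 41.2 and 51.0 CPM against 33.3, 15.01 and 21.5 CPM, again without overlap (1.04 ± 0.33, edgeR adjusted p = 0.0354). This call was lost without library a, b or c, with adjusted p between 0.0555 and 0.213 in the edgeR fits. It was also lost with at least 4 markers (edgeR adjusted p = 0.0517) and with DESeq2 (DESeq2 adjusted p = 0.142). The Tal1 difference was 0.93 without HSC-Fgd5+ and 1.23 without Fgd5+, fits that each leave a single ZsGreen-positive library and are given as sizes only. Gfi1b, at 48.7 and 43.5 CPM against 40.0, 41.3 and 23.9 CPM, was not called (0.48 ± 0.29, edgeR adjusted p = 0.254). Its groups did not overlap either, which, as for Tal1, is no result without the share of all genes.

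Gata1, Zfpm1 and Klf1 did not pass the filter. Gata1 was at 4.20 and 4.83 CPM in ZsGreen-positive stem-like cells, from 15 and 9 UMIs, below the 20.0, 33.8 and 19.1 CPM of Lin-kit+ stem-like cells, from 3, 9 and 8 UMIs. Fitted without the filter, Gata1 differed by -2.46 ± 0.52 (edgeR adjusted p = 7.3e-05), Zfpm1 by 3.75 ± 0.89 (edgeR adjusted p = 6.87e-04) and Klf1 by -0.43 ± 1.33 (edgeR adjusted p = 0.868). The Zfpm1 value depends on a count of 1 UMI in all Lin-kit+ stem-like cells. Markers of other cells also moved with the sort, but not all lists in the same direction. Of the 10 neutrophil markers, 9 were higher in Lin-kit+ than in ZsGreen-positive stem-like cells, Elane among them at 81.3 against 0.368 CPM, and Gfi1 was lower. Summed over the list, they reached 133.3, 247.7 and 257.5 CPM in stem-like cells of a, b and c and 15.7 and 12.3 CPM in those of Fgd5+ and HSC-Fgd5+. The megakaryocyte markers were mixed, since 4 of the 9 measured were higher in Lin-kit+, among them Pf4 at 338.6 against 56.5 CPM, and 5 were higher in ZsGreen-positive cells, among them Itga2b at 15.6 against 34.4 CPM. Their sums were 106.6, 258.9 and 631.9 CPM in a, b and c and 173.2 and 157.9 CPM in the ZsGreen-positive libraries, so that the groups overlapped. The dendritic sums went against the neutrophil ones, at 366.5, 356.5 and 369.6 CPM in a, b and c against 829.1 and 959.7 CPM in Fgd5+ and HSC-Fgd5+. Of the 10 dendritic markers, 5 were higher in ZsGreen-positive cells, among them Cd74 at 57.4 against 328.7 CPM. Flt3 was the 1 marker higher in Lin-kit+, at 34.7 against 9.39 CPM. The erythroid sums overlapped, at 139.9, 127.6 and 133.5 CPM against 135.9 and 137.5 CPM, as did the monocyte and eosinophil sums. Single erythroid markers moved both ways. Of the 10, 5 were higher in Lin-kit+, among them Car1 at 13.2 against 0.368 CPM. Another 2 were higher in ZsGreen-positive cells, among them Blvrb at 55.0 against 85.8 CPM. These counts were 6 and 3 for the monocyte and 3 and 3 for the eosinophil markers. Basophil/mast and lymphoid sums were higher in every Lin-kit+ library than in both ZsGreen-positive ones. Of the 9 basophil/mast markers measured, 6 were higher in Lin-kit+ and 0 lower. Of the 9 lymphoid markers measured, 4 were higher in Lin-kit+ and 2 lower. Most of the lymphoid sum in Lin-kit+ was Nkg7, at 345.7 against 19.5 CPM, a gene at 1432 CPM in neutrophil-like cells. Cd79b went the other way, at 26.3 against 47.5 CPM. The part of all these markers in the differences was not tested.

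A few ZsGreen-positive cells had a Gata1 UMI, 22 in Fgd5+ and 7 in HSC-Fgd5+. The 22 cells of Fgd5+ were deeper than the other 771 of their library, with medians of 9702 and 4282 UMIs. Of these, 72.7% had at least 2 megakaryocyte markers, against 11.8% of the others, and 63.6% had at least 2 erythroid markers, against 8.30%. They had 5.36 stem markers on average against 5.86. In HSC-Fgd5+ the shares with 2 megakaryocyte markers were 28.6% and 9.38%, with only 7 cells behind the first. The part of depth in these shares was not tested.

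The genes most like each member were named over 22 sums of a class in a library, by Pearson's r of log2(CPM + 10), among 10104 genes with at least 100 UMIs. The sums share libraries and classes, so r is a description. For Gata1 they were Icam4 (r = 0.936), 2310039H08Rik (0.911) and Taok3 (0.910), and Gfi1b came next (0.875). For Gata2 they were Cd55 (0.933), Snap47 (0.895) and Apoe (0.893), and Gata1 itself ranked only 202 (0.635). Gfi1b was most like Cela1 (0.937), Icam4 (0.905) and Fam109b (0.900), and Klf1 was like Tspo2 (0.922) and the erythroid marker Blvrb (0.894).

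Tal1 was most like Epb41 (0.887), Pstk (0.885) and Nqo1 (0.875), and Zfpm1 most like Rsad1 (0.855), Zcchc3 (0.852) and Smyd2 (0.838). Lmo2 was most like Gm42418 (0.922), Mycn (0.909) and Cenpt (0.898), and least like Klf1 among the members (0.0557).

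Of 28 genes for proteins that share complexes or sites with the members, 14 were higher and 4 lower in the ZsGreen-positive libraries, where 32.7% of all genes were higher and 30.4% lower, with a median log2 difference of 0.70 against 0.07 over all genes. Gfi1, which is also a neutrophil marker here, is among the lower ones. Gata3, the GATA factor of T cells, rose by 3.86 ± 0.26 (edgeR adjusted p = 2.3e-05), and Erg, an ETS factor of stem cells, by 2.20 ± 0.11 (edgeR adjusted p = 7.7e-06). Lyl1, the nearest relative of Tal1, rose by 1.27 ± 0.45 (edgeR adjusted p = 0.0415). Lmo4, a LIM-only protein like LMO2, fell by 2.28 (edgeR adjusted p = 5.35e-06). Within stem-like cells 5 of the 24 tested were higher in ZsGreen-positive cells, Gata3, Erg and Lyl1 among them, and 0 lower, where 11.6% of all genes were higher and 10.1% lower.

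Between classes, of the 21 tested, 8 were higher and 6 lower in erythroid-like than in basophil/mast-like cells, where 27.5% of all genes were higher and 28.4% lower. Against stem-like cells 4 were higher and 8 lower, where 19.4% of all genes were higher and 21.6% lower. Ldb1, which holds the TAL1 and LMO2 complex together, was higher in erythroid-like than in basophil/mast-like cells by 1.87 ± 0.28 (edgeR adjusted p = 9.44e-10) and than in stem-like cells by 1.06 ± 0.31 (edgeR adjusted p = 0.00273). Fli1, an ETS factor of megakaryocytes, separated megakaryocyte-like from erythroid-like cells, with a difference of -4.24 ± 0.32 on the log2 scale (edgeR adjusted p = 9.39e-30). Lmo4 was at 985.8, 1143 and 1046 CPM in basophil/mast-like cells of a, b and c and at most 27.5 CPM in any megakaryocyte-like sum.

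Of 24 textbook target genes of these factors, 12 are markers that chose the cells and were left out of the class comparisons. Of the other 12, 6 were tested between classes, and in erythroid-like cells 4 were higher and 1 lower than in megakaryocyte-like, 4 and 0 than in basophil/mast-like, and 3 and 2 than in stem-like cells. The shares of all genes that differed in these comparisons were 21.1%, 56.0% and 41.0%. Over the whole list in the ZsGreen-positive comparison, 6 of 20 tested were higher and 8 lower, where 63.1% of all genes differed, with a median of -0.28 against 0.07 over all genes.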

How the data were processed

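Sorted bone marrow cells were made into 5 libraries with the 10x Chromium Single Cell 3′ v2 kit. The authors deposited 1 table of raw UMI counts per gene and cell, in which the 5 libraries carry barcode suffixes and consecutive sequencing runs were combined. The submitters' processing notes name Cell Ranger 1.3 and 2.1, Seurat 2.3.4 and the build mm10, and the annotation is not given in the sources used here. Values in Python 3.11.15 (numpy 2.4.6, scipy 1.17.1, scanpy 1.11.5, leidenalg 0.10.2) are UMIs scaled to the library or class total (CPM), with exact Poisson or binomial 95% intervals that cover counting error only.

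A cell joined a class with at least 3 distinct markers and 2 more than in any other list. Counts summed per library, or per library and class of at least 10 cells, were tested in R 4.3.3 with the quasi-likelihood test of edgeR 4.0.16 (TMM, filterByExpr, Benjamini-Hochberg over all genes tested, adjusted p below 0.05), with the library as a block between classes. SEs are the log2 difference divided by the square root of F. Comparisons of classes share their libraries and one fit. The suffixes were tied to sorts by cell numbers alone. For thinning to 2000 UMIs, 823 shallower cells were left out.

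On simulated counts the fit recovered 53.7% of 2-fold and 89.5% of 4-fold changes between the sorts, and 30.5% and 76.3% between megakaryocyte-like and basophil/mast-like cells. Alternatives were library totals for scaling, DESeq2 1.42.0, no filter on low counts, a cell filter (1000 UMIs, 10% mitochondrial UMIs, 194 cells left out), no doublets, 2 or 4 markers, Leiden clusters made without the members, thinning, no block and each library left out. All members are named, with the 3 genes most like each and, of 2 pathway lists, counts and some of the up to 5 genes with the largest change each way. Some genes that this rule names are not reported here. The members and lists were chosen with earlier results of these data known.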

Additional observations from a re-analysis of the deposited data

How the results depend on the processing

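Over 15 alternative settings, 47 results on the members gave 580 values, of which 527 kept direction and side of the threshold, 34 lost a call, 8 gained one and 11 changed sign. The 7 calls between sorts held under every setting run. Called members went from 3 to 7 (Leiden clusters) and 5 (no filter) in stem-like cells of both sorts, from 1 to 2 (4 markers) and 5 (Leiden clusters) in erythroid-like against megakaryocyte-like cells, from 6 to 3 in erythroid-like against stem-like cells without the library block, and, with thinned cells, from 4 to 2 and from 3 to 1 in megakaryocyte-like against basophil/mast-like and stem-like cells. Thinning leaves fewer UMIs, and the other causes were not tested. No paired analysis was possible because the labels give no replicate numbers, and the library block pairs classes within a library. The mean Gata1 share of 66.12% in erythroid-like cells became 72.66% (4 markers), 55.94% (thinned) and 58.64% (Leiden clusters). In Lin-kit+ stem-like cells 35.72% became 63.89% (thinned, a mean that rests on 9 UMIs, too few for a share), and in ZsGreen-positive ones 2.899% became 2.871% (2 markers), 2.816% (4 markers), 2.998% (no doublets), 1.713% (thinned) and 3.26% (Leiden clusters).

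The sign changes were all of uncalled differences. In erythroid-like against megakaryocyte-like cells, Gata2 turned to 0.24 (thinned) and ranged from -0.79 to 0.31 with each library left out, Gfi1b ranged from -0.19 to 0.65, and Tal1 turned to 0.002 (2 markers), 0.40 (Leiden clusters), 0.03 (DESeq2) and 0.16 (no filter). Lmo2 turned to 0.12 in megakaryocyte-like against stem-like cells (Leiden clusters). In basophil/mast-like against stem-like cells Gfi1b turned to 0.058 (Leiden clusters) and ranged from -0.21 to 0.094 with each library left out, and Tal1 was -0.25 without b and 0.009 without a, with no value without c. With library totals the share of calls that were higher moved from 55.9% to 33% in basophil/mast-like against stem-like, 35.5% to 60.5% in megakaryocyte-like against basophil/mast-like and 53.6% to 42.8% in erythroid-like against megakaryocyte-like cells, with no sign change among the members.

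Over all genes, calls ranged with the setting, around 1116, from 336 to 3649 in stem-like cells of both sorts, around 1921 from 418 to 2927 in erythroid-like against stem-like, around 2624 from 832 to 3431 in erythroid-like against basophil/mast-like, around 988 from 256 to 1511 in erythroid-like against megakaryocyte-like, around 969 from 385 to 1563 in megakaryocyte-like against basophil/mast-like, around 501 from 187 to 655 in megakaryocyte-like against stem-like and around 1249 from 447 to 1963 in basophil/mast-like against stem-like cells. The 76 megakaryocyte-like cells in Lin-kit+ and the 54 Zfpm1 UMIs there limit what those values show.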
